A study of Mus musculus with 2 samples.

Results

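The genes described here are Ifitm1, Ifitm2, Ifitm3 and Ifitm6, 4 members of the interferon-induced transmembrane family that lie close together on mouse chromosome 7. They were taken by symbol from the gene table of both count matrices, where each symbol had 1 row, and they are 4 of the 32285 genes listed. The study asked how circulating neutrophils differ between old and young mice. It profiled blood cells of mice labelled male in 1 old library (24 months) and 1 young library (2 months). In both, red cells had been lysed and live cells sorted as CD45+, CD11b+ and Ly6G+ before capture in BD Rhapsody microwells. The labels give no strain and do not state how many mice each library holds, so the spread between animals is unknown and no difference between the ages carries a p-value.

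Ifitm proteins are small membrane proteins that hinder the fusion of enveloped viruses with cell membranes. Ifitm3 acts mainly in endosomes and Ifitm1 mainly at the cell surface, as known from human and mouse cells. Ifitm3 is a classical target of interferon, and myeloid cells carry Ifitm transcripts at rest. Ifitm6 is a rodent member found in myeloid cells. Neutrophils leave the bone marrow late in their maturation. Transcripts of their granule proteins are lost as the cells mature, so granule transcripts are used below as a scale of maturity.

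All 4 genes are annotated as protein coding in GENCODE vM21 (build GRCm38) and lie within 63088 bases. Ifitm2 (ENSMUSG00000060591) lies on the minus strand at chr7:140954837-140955987, where Gm45717, a protein-coding gene on the same strand, overlaps it. Ifitm1 (ENSMUSG00000025491) is the one on the plus strand, at chr7:140967221-140969825. Ifitm3 (ENSMUSG00000025492) lies on the minus strand at chr7:141009586-141010770 and Ifitm6 (ENSMUSG00000059108) on the same strand at chr7:141015699-141017924. The longest run of identical bases shared by transcripts of 2 members was 69 bases, between Ifitm2 and Ifitm3. It was 64 bases between Ifitm1 and Ifitm3, 40 between Ifitm1 and Ifitm2, and at most 25 between Ifitm6 and any other member. Of the stretches of 50 bases in the Ifitm3 transcript, 3.18% also occur in Ifitm2 and 2.38% in Ifitm1. A read of 50 bases from such a stretch could not be given to 1 gene. No stretch of 50 bases is shared with Ifitm6.

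The 250 bases before each gene's RefSeq start (GRCm38.p6) are shown because the members differed in how their levels ran with interferon-stimulated genes. Capitals mark 2 copies of GAAA separated by any 2 bases, the core repeat of interferon-stimulated response elements, searched on both strands.
Ifitm1, chr7:140967826-140968075, plus strand: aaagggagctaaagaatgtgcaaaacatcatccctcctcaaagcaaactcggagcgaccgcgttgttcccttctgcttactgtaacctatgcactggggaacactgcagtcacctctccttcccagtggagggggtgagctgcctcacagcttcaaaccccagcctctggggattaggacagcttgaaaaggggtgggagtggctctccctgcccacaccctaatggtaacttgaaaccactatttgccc
Ifitm2, chr7:140955962-140956211, minus strand: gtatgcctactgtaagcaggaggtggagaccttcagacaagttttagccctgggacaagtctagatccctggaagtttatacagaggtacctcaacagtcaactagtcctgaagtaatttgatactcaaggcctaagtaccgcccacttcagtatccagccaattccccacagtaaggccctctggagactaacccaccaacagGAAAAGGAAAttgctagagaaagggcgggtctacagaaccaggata
Ifitm3, chr7:141010745-141010994, minus strand: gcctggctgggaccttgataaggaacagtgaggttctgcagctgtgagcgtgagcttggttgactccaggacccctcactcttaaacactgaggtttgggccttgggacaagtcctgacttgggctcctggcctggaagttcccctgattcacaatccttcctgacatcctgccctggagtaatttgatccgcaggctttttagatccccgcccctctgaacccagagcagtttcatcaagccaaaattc
Ifitm3, first transcribed bases, chr7:141010714-141010743, minus strand: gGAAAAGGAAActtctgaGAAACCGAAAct
Ifitm6, chr7:141016893-141017142, minus strand: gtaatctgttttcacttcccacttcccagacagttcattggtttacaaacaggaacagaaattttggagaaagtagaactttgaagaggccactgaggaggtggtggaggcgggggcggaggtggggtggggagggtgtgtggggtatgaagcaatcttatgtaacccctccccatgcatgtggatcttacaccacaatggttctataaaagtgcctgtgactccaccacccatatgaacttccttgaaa

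In windows of 300 bases (250 before to 50 after the start), Ifitm3 held 2 matches, both within its first transcribed bases, from base 3 to 12 and from base 20 to 29. Ifitm2 held 1 match, from 46 to 37 bases before its start. Ifitm1 and Ifitm6 held no match in this window. Their windows lie wholly inside the GENCODE gene spans given above, so the bases around the outer gene starts were not searched. The windows of Ifitm2 and Ifitm3 reach past the starts of their spans. Of all 32851 promoter windows of this length, 3.44% held at least 1 match. The letters TTCNNNGAA, the form of interferon-gamma activated sites, occurred once in Ifitm3, overlapping its second match, and once in Ifitm6, against 8.30% of all windows. A match of letters is a description and not a measured site.

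The old library held 14334 barcodes with 128826996 UMIs in all (unique molecular identifiers, each standing for 1 captured transcript; median 7265.5 per barcode). The young library held 13599 barcodes with 69599479 UMIs (median 4246). After barcodes with under 200 genes or over 20% mitochondrial UMIs had been removed, 13517 old and 12921 young cells remained. The libraries had 53 barcodes in common. Clustering gave 8402 old and 9825 young neutrophil-like cells, in which all 10 neutrophil markers were detected. Although the sort was for Ly6G, monocyte-like, B, T and NK cell-like, platelet-like and erythroid cell-like cells were found in both libraries. The 2 libraries filled different neutrophil-like clusters: cluster 1 held 4544 old and 83 young cells and cluster 0 held 776 old and 6712 young cells. Ifitm1 is among the leading genes of cluster 1, although no Ifitm gene was used for the clustering. Other clusters stayed unnamed and out of the comparisons. A cluster of 1173 old and 943 young cells was led by platelet genes, but all 10 neutrophil markers were detected in it. Its S100a8 level was 118152 CPM in old and 48433 CPM in young cells. Another cluster of 408 old and 90 young cells had low leading genes and 8 of 10 neutrophil markers detected. Cells with neutrophil transcripts were thus left out of the neutrophil-like sums. The remaining 2 were small sets of 17 and 14 old cells.

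The maturity scale was the share of a cell's UMIs from the granule genes Ltf, Camp, Ngp, Lcn2 and Chil3. Neutrophil-like cells under 0.5% are called granule-low (3312 old, 9411 young) and those at 2% or more granule-high (1607 old, 68 young). Counts were summed over cells and given as counts per 1000000 UMIs (CPM). Intervals in brackets are exact 95% Poisson intervals, which cover counting error only, and a member is called higher or lower from 1.5-fold.

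Along maturity the members separated. Ifitm6 was highest in granule-high cells, Ifitm1 was higher in granule-low cells, Ifitm2 was lower in granule-high cells and Ifitm3 was within 1.5-fold of its granule-low level in granule-high cells. These statements hold for both libraries on summed CPM.

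Ifitm6 stood in the old library at 412 CPM (374 to 452) in cells under 0.1% granule share, 1032 (1017 to 1048) at 0.1 to 0.5%, 3136 (3116 to 3156) at 0.5 to 2% and 6258 (6228 to 6289) at 2% or more. Young cells stood at 135 CPM (131 to 139.7), 196 (189 to 203), 714 (677 to 752) and 2938 (2818 to 3061) over the same ranges. Each step up the scale was larger than the counting intervals in both libraries. The log2 ratio of granule-high over granule-low cells was 2.65 in the old and 4.22 in the young library. After every cell had been thinned to 1000 UMIs, Ifitm6 was detected in 99.1% of granule-high and 46.2% of granule-low cells of the old library. The shares were 91.2% and 12.1% in the young library.

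Ifitm1 ran the other way. In the old library it stood at 4967 CPM under 0.1%, 7519 at 0.1 to 0.5%, 6143 at 0.5 to 2% and 1241 (1227 to 1254) at 2% or more. In the young library the values were 1989, 2006, 1529.7 and 124 (101 to 152) CPM. The highest old level therefore lay in the second range, whereas the first and second ranges of the young library overlapped in their intervals. The log2 ratio of granule-high over granule-low cells was -2.57 in the old and -3.99 in the young library. Of granule-high cells thinned to 1000 UMIs, 48.3% of old and 11.8% of young ones held an Ifitm1 UMI, against 88.6% of old and 61.7% of young granule-low cells.

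Cells of 1 range varied widely in Ifitm1. Among old granule-low cells, the 10th, 50th and 90th percentiles of a cell's Ifitm1 were 685, 5311 and 14962 CPM. In young granule-low cells they were 0, 1152 and 5281 CPM. For Ifitm2 the same percentiles were 1372, 3266 and 6013 CPM in old and 733, 2173 and 4532 CPM in young granule-low cells. These percentiles also carry the sampling noise of shallow cells.

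Ifitm2 stood at 3160.2 CPM (3054 to 3269), 3664, 3505 and 2009 (1992 to 2026) over the 4 ranges of the old library, from lowest to highest granule share. In the young library it stood at 2411, 2358, 1980.2 and 646 (590.1 to 705) CPM. The level fell off at 2% or more in both, with log2 ratios over granule-low cells of -0.85 and -1.89. Ifitm3 stood at 1174 (1109.5 to 1241), 1837, 2311 and 2129.6 (2112 to 2148) CPM in the old library and at 985 (973 to 997), 1096, 1237 and 1042 (971 to 1117) CPM in the young one. Its log2 ratio of granule-high over granule-low cells was 0.24 in the old and 0.02 in the young library. Between the highest and the lowest of the 4 ranges it was 0.86 in the old and 0.08 in the young library, so old cells under 0.1% were lower in Ifitm3.

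In count form, 1 of the 4 members was higher and 2 were lower in granule-high cells of the old library, where 11.5% of the genes tested were higher and 43.9% lower. The young library also gave 1 higher and 2 lower, against 15.4% and 46.8% of genes. The median gene at 50 CPM or more lay at -0.63 on the log2 scale in the old and -0.62 in the young library. Relative to it, Ifitm2 in the old library was at -0.23 and no longer called, and Ifitm3 was at 0.87 in the old and 0.65 in the young library and called higher. On that scale 30% of genes were higher and 17.1% lower in the old library, and 31% were higher and 24.9% lower in the young library. Ifitm3 was likewise called higher in the old library at 0.61 when S100a8, S100a9, mitochondrial and ribosomal protein genes were left out of the total. The young granule-high set is small: when the highest and lowest 20% of young cells by granule share were compared instead, Ifitm6 remained higher at 2.13, but Ifitm1 stood at -0.16 and Ifitm2 at -0.18. Within 20% of the limits lay 1397 old and 381 young cells at 0.5%, and 430 old and 17 young cells at 2%.

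**Figure D1:**
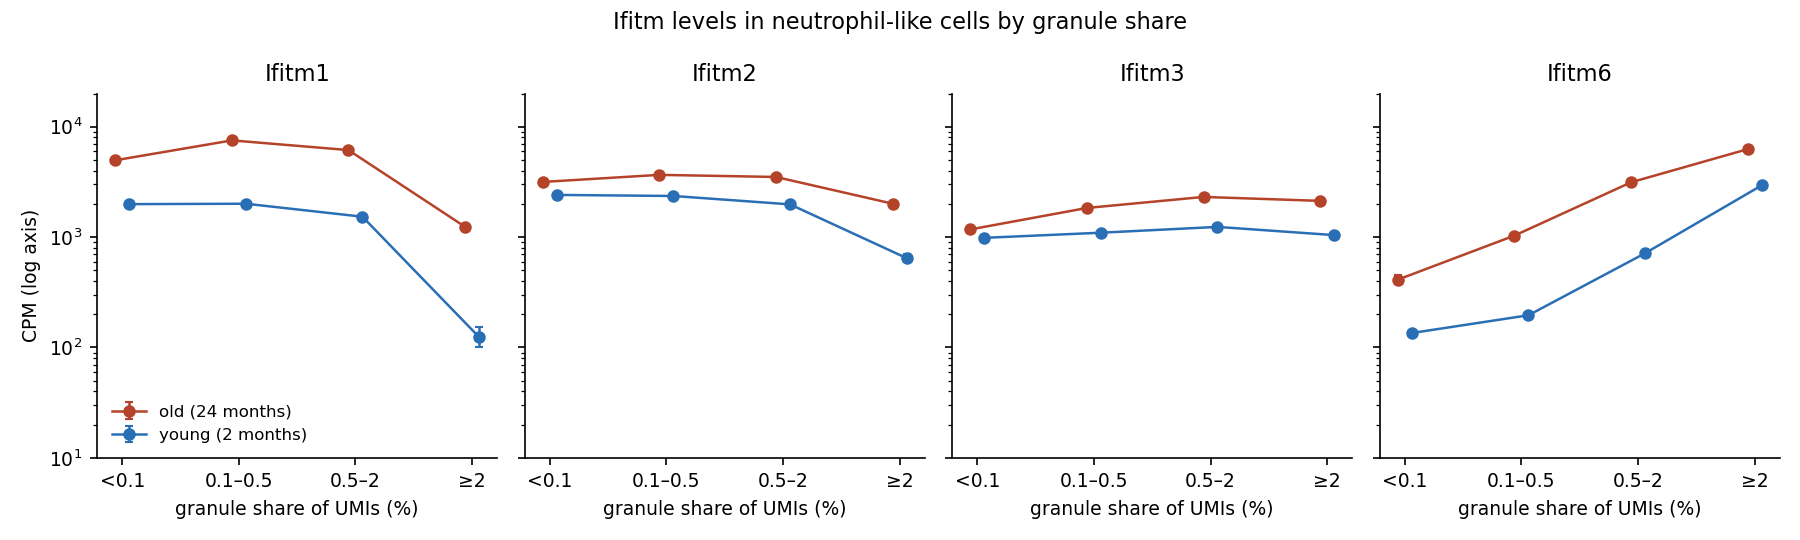
Level of each member (CPM, log axis) in neutrophil-like cells of the old and young library over 4 ranges of granule share (percent of UMIs), with exact Poisson intervals that cover counting error only. Ifitm6 climbs to 6258 CPM in old and 2938 CPM in young cells at 2% or more, while Ifitm1 drops there to 1241 and 124 CPM.

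Between the ages, all 4 members stood higher in old than in young neutrophil-like cells by value. Over all neutrophil-like cells, Ifitm6 was at 3707 CPM (3693 to 3721) in the old and 231 CPM (226 to 235) in the young library, a log2 ratio of 4.0. Ifitm1 was at 4737 CPM (4721 to 4753) in old and 1941 CPM (1928 to 1954) in young cells, a ratio of 1.29. Ifitm3 was at 2126 CPM (2115 to 2136) in old and 1035 CPM (1025 to 1044) in young cells, a ratio of 1.04, and Ifitm2 at 3018 CPM (3005 to 3030.3) and 2342 CPM (2328 to 2357), a ratio of 0.37. So 3 of 4 members were called higher, against 7.56% of all genes tested, and 51.3% of genes were lower.

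The share of these cells that were granule-high also differed between the libraries, 1607 of 8402 old and 68 of 9825 young cells. The median gene lay at -0.69 on the log2 scale, and relative to it 23.9% of genes were higher and 12.6% lower, and all 4 members were higher, Ifitm2 at 1.05. S100a8 alone made up 155031 CPM in old and 52353 CPM in young neutrophil-like cells.

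In granule-low cells the ages differed as well. Ifitm1 was at 7366 CPM (7326 to 7406) in old and 1995 CPM (1981 to 2009) in young granule-low cells, a log2 ratio of 1.88. Ifitm6 was at 995 CPM (981 to 1010.1) in old and 157 CPM (153 to 161) in young cells, a ratio of 2.66. Ifitm3 was at 1797 CPM in old and 1025 CPM in young cells (0.81) and Ifitm2 at 3634 CPM in old and 2392 CPM in young cells (0.60). All 4 members passed 1.5-fold, against 4.83% of genes higher and 26.5% lower; relative to the median gene at -0.36, 10.5% of genes were higher and 6.83% lower. In rank among 7245 genes, Ifitm6 was number 19 and Ifitm1 number 37 from the highest ratio.

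The calls of Ifitm2 and Ifitm3 changed with the cells and the scaling. With equal weight per cell Ifitm2 was at 0.51, and in cells thinned to 1000 UMIs at 0.50, both under 1.5-fold. Old granule-low cells still had more granule transcripts, 0.301% of UMIs on summed counts against 0.0996% in young ones, and their S100a8 level was 101917 CPM against 47954 CPM. In the range under 0.1%, Ifitm1 was at 4967 CPM in old and 1989 CPM in young cells, Ifitm6 at 412 and 135 CPM, Ifitm2 at 3160.2 and 2411 CPM, and Ifitm3 at 1174 and 985 CPM. Within cluster 0 the log2 ratios were 1.11 for Ifitm1, 1.52 for Ifitm6, 0.41 for Ifitm2 and 0.39 for Ifitm3. Cluster 4 (134 old and 1756 young cells) gave 1.12, 1.57, 0.41 and 0.34 in the same order, so that 2 members were called in each of these clusters. In cluster 6, led by Ifit3 and other interferon-stimulated genes (188 old and 1013 young cells), the ratios were 1.53, 2.47, 0.36 and 0.59. Cluster 11 (576 old and 53 young cells) gave 1.02, 2.17, 0.25 and 0.41.

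Clusters 1 and 2, which lie higher on the granule scale, called all 4 members, with few young cells. In cluster 1, Ifitm1 was at 7748 CPM in old and 1221 CPM in young cells (2.66), Ifitm6 at 2237 and 748 CPM (1.58), Ifitm2 at 3792 and 1793 CPM (1.08) and Ifitm3 at 2255 and 1206 CPM (0.90). In cluster 2 (2138 old and 114 young cells), Ifitm1 was at 1518 CPM in old and 315.5 CPM in young cells (2.26), Ifitm6 at 6008 and 2531 CPM (1.25), Ifitm2 at 2152 and 886 CPM (1.28) and Ifitm3 at 2134.5 and 1107 CPM (0.95). The size of the age difference of Ifitm1 and Ifitm6 thus depended on the set of cells, but both stayed past 1.5-fold in every set named here. These alternatives by cluster were chosen after seeing the data.

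The members were also counted in B cell-like cells, at more UMIs per cell in the old library. B cell-like cells, after those richest in S100a8 and S100a9 had been removed (219 old and 375 young cells left), held 2.33 Ifitm6 UMIs per cell in the old library and 0.088 in the young one. That is 44.1% of the Ifitm6 level of old granule-low cells (5.29 UMIs per cell) and 12.8% of that of young granule-low cells (0.69). For Ifitm1 the B cell-like level was 12.1% of the granule-low level in the old and 12.3% in the young library. Ifitm2 gave 21.2% and 10.1%, and Ifitm3 33.1% and 16.5%. With the B cell-like level subtracted from each cell, a setting added after seeing the data, the old over young log2 ratio in granule-low cells was 1.89 for Ifitm1, 2.01 for Ifitm6, 0.41 for Ifitm2 and 0.49 for Ifitm3, which leaves 2 members called. The subtracted B cell-like levels stood above free RNA as measured below by S100a8 and S100a9. They were 1.56 to 3.68 times that level in the old and 1.74 to 3.28 times in the young library. What part of them is free RNA was not tested. Old granule-high cells held 99.6 Ifitm6 UMIs per cell and young ones 33.3.

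**Figure D2:**
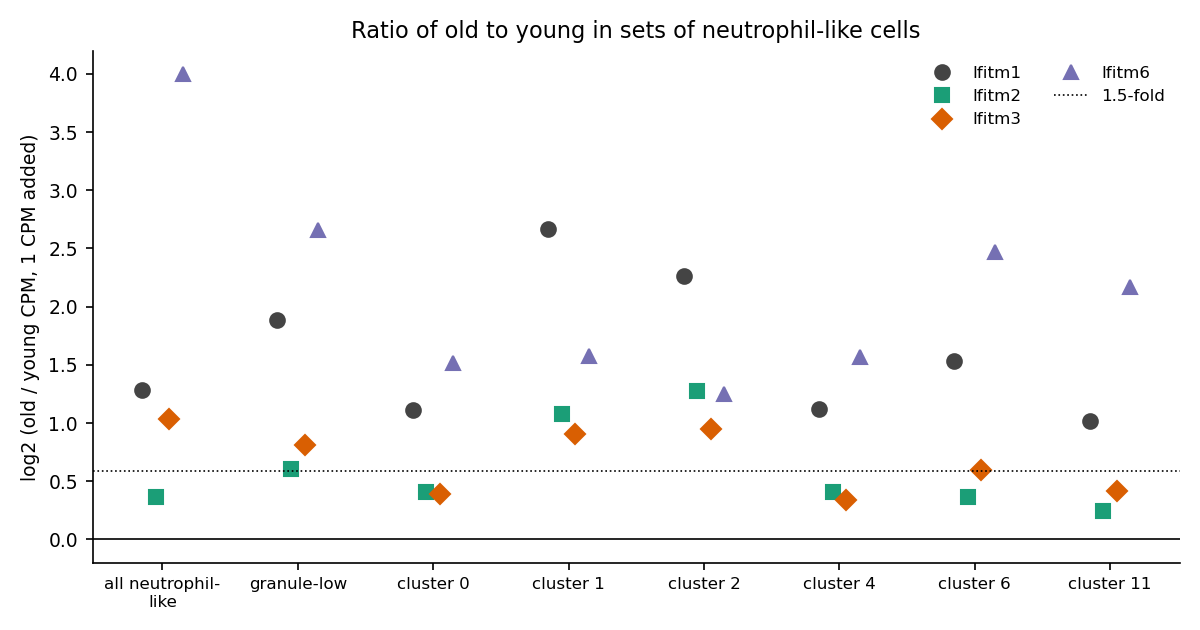
Log2 ratio of old over young CPM (1 CPM added) for the 4 members in all neutrophil-like cells, in granule-low cells and in 6 clusters of neutrophil-like cells (50 or more from each library), with 1 point per member and the 1.5-fold limit dotted. Ifitm6 (4.0 to 1.25) and Ifitm1 (2.66 to 1.02) lie above the limit in every set, whereas Ifitm2 passes it in granule-low cells (0.60) and in clusters 1 (1.08) and 2 (1.28).

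In monocyte-like cells Ifitm3 stood out. Of the 7 cell groups compared, Ifitm3 was highest in classical monocyte-like cells, at 3268 CPM (3246 to 3291) in the old and 4194 CPM (4118 to 4271) in the young library. Non-classical monocyte-like cells followed with 2265 CPM (2227 to 2305) and 2448 CPM (2405 to 2492). The median classical monocyte-like cell held 60 Ifitm3 UMIs in the old and 62 in the young library. Thinned to 1000 UMIs, 92.9% of old and 94.1% of young classical monocyte-like cells held an Ifitm3 UMI, against 24.6% and 12% of B cell-like cells.

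Ifitm1 was low in the same cells, at 939.8 CPM in old and 245 CPM in young classical monocyte-like cells. In non-classical monocyte-like cells it was at 1337 CPM in old and 326 CPM in young ones. The median cell had 399.9 CPM in old and 103 CPM in young non-classical monocyte-like cells, below the sums in both libraries. Ifitm2 stood at 1761.5 and 1129 CPM in old and young classical, and at 1620.3 and 1082 CPM in old and young non-classical monocyte-like cells. Ifitm6 stood at 987 and 546 CPM in old and young classical and 1454 and 395 CPM in old and young non-classical monocyte-like cells.

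Against granule-low neutrophil-like cells of the same library, non-classical monocyte-like cells gave no member higher and 2 lower in the old library, where 55.7% of genes were higher and 13.4% lower (46.1% and 18.4% relative to the median gene). Ifitm1 was lower at -2.46 and Ifitm2 at -1.16, while Ifitm3 was at 0.33 and Ifitm6 at 0.55. In the young library 2 members were higher, Ifitm3 at 1.26 and Ifitm6 at 1.33, and 2 lower, Ifitm1 at -2.61 and Ifitm2 at -1.14, against 50.6% of genes higher and 17.4% lower (46.8% and 19.9% relative to the median gene). The count of members higher does not stand above these backgrounds. Classical monocyte-like cells gave 1 member higher (Ifitm3 at 0.86) and 2 lower in the old library, against 55.1% and 16.8% of genes (51.9% and 18.9% relative to the median gene). They gave 2 higher (Ifitm3 at 2.03, Ifitm6 at 1.79) and 2 lower in the young library, against 50.2% and 21% of genes (50.9% and 20.6% relative to the median gene). Taking the 20% of old neutrophil-like cells lowest in granule share as the base brought Ifitm6 to 1.17 in old non-classical monocyte-like cells and so called it higher.

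Granule transcripts stood beside these levels. Ltf was at 1154 CPM in old and 4.39 CPM in young non-classical monocyte-like cells, and the 10 neutrophil markers summed to 93918 CPM in old and 19562 CPM in young ones. Their part in the Ifitm6 and Ifitm1 levels of old monocyte-like cells was not tested. The classical monocyte-like cells of the young library were also richer in genes of antigen presentation, with Cd74 at 717 CPM in old and 2579.5 CPM in young cells. Of 6 neutrophil progenitor markers, 4 reached 20 CPM in old and 0 in young classical monocyte-like cells. At the alternative Leiden resolution of 1.0, 1252 old cells were classical monocyte-like and 77 old cells neutrophil progenitor-like. What part these differences have in the member levels was not tested.

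**Figure D3:**
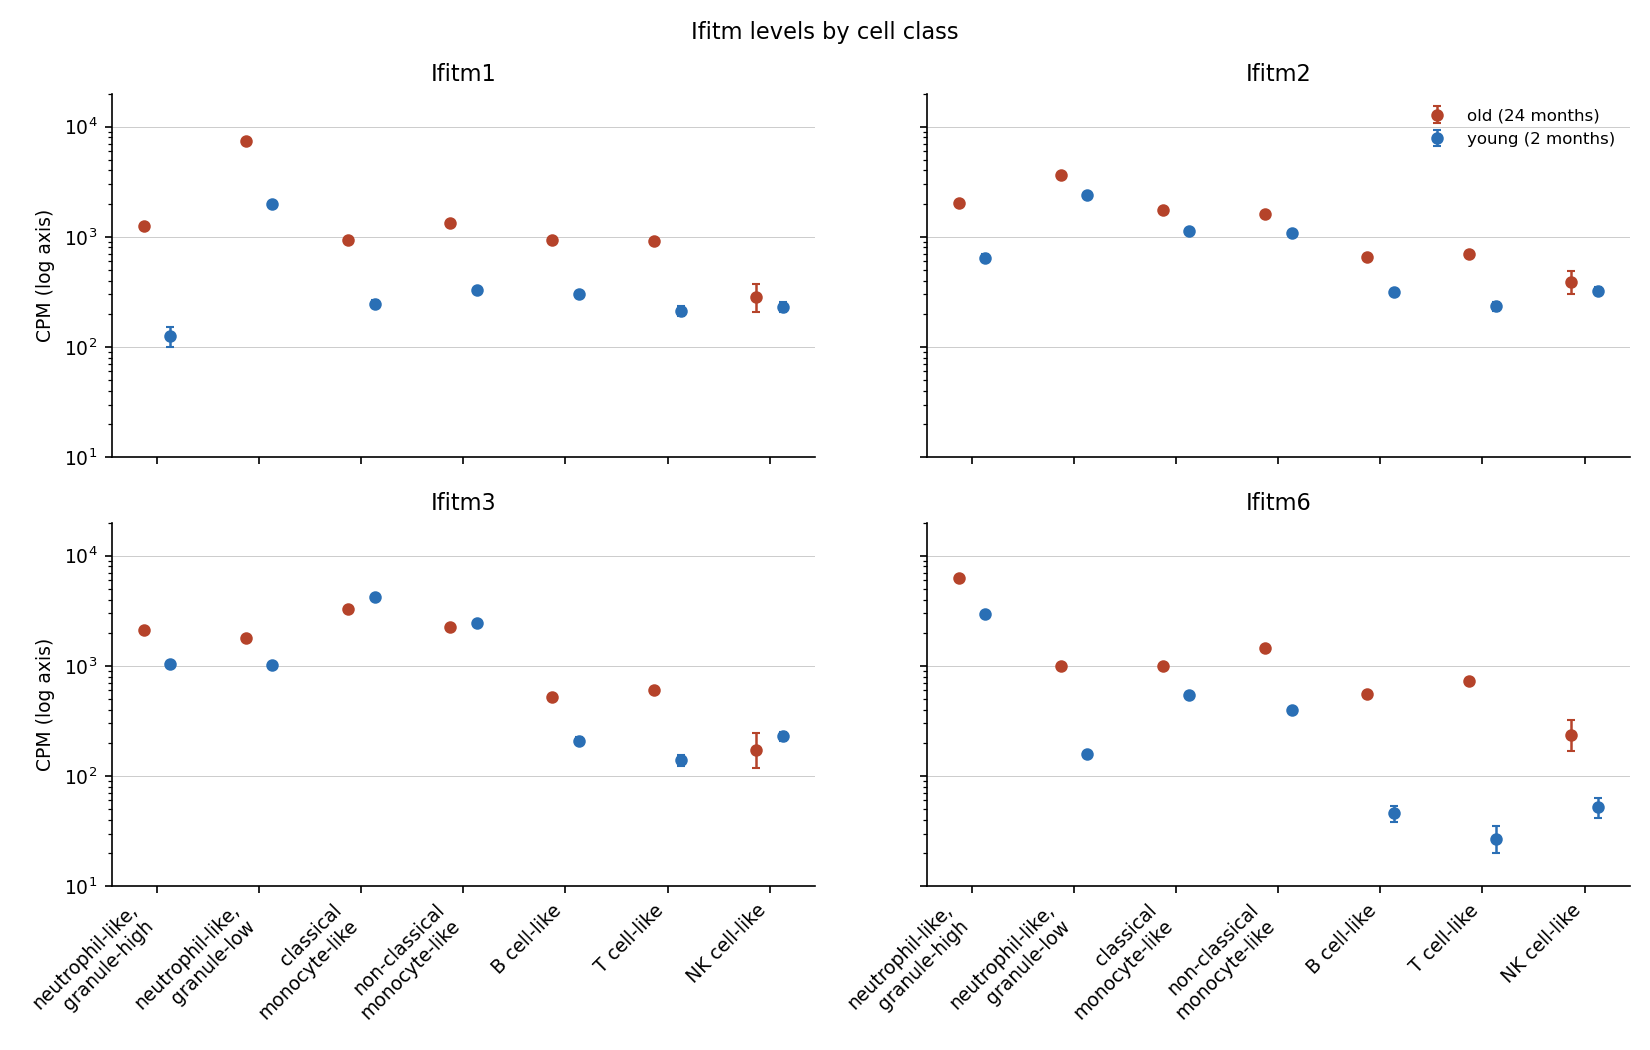
Level of each member (CPM, log axis) in granule-high and granule-low neutrophil-like cells and in monocyte-like and lymphocyte-like classes of the old and young library, with exact Poisson intervals that cover counting error only. Ifitm3 peaks in classical monocyte-like cells (3268 CPM in old, 4194 CPM in young), Ifitm1 and Ifitm2 in granule-low and Ifitm6 in granule-high neutrophil-like cells.

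Ordered by class, old Ifitm1 was highest in granule-low neutrophil-like cells (7366 CPM), followed by non-classical monocyte-like (1337), granule-high (1241), classical monocyte-like (939.8), B cell-like (928), T cell-like (921) and NK cell-like cells (284). The intervals of classical monocyte-like, B and T cell-like cells overlapped. Young Ifitm1 ran from granule-low (1995) over non-classical monocyte-like (326), B cell-like (299), classical monocyte-like (245), NK (231) and T cell-like (212) to granule-high cells (124). There the intervals of non-classical monocyte-like and B cell-like cells overlapped, as did those of classical monocyte-like, NK and T cell-like cells. By the median cell the order differed, with 108 CPM in young granule-high cells, 55.8 in T, 34.9 in NK and 0 in B cell-like cells.

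Old Ifitm2 ran from granule-low (3634) over granule-high (2009), classical (1761.5) and non-classical monocyte-like (1620.3), T (701) and B (661) to NK cell-like cells (388), with overlapping intervals for T and B cell-like cells. Young Ifitm2 ran from granule-low (2392) over classical (1129) and non-classical monocyte-like (1082), granule-high (646), NK (323) and B (314) to T cell-like cells (235). Overlaps were found for the 2 monocyte-like classes, and for NK and B cell-like cells. In Ifitm3, old T (608), B (525) and NK cell-like cells (174) and young NK (229), B (209) and T cell-like cells (139) lay below all myeloid classes, with overlapping intervals for young NK and B cell-like cells. Granule-high and granule-low cells of the young library overlapped in Ifitm3. For Ifitm6, old granule-low (995) and classical monocyte-like cells (987) overlapped. Old T (731), B (552) and NK cell-like cells (237) and young NK (51.8), B (45.7) and T cell-like cells (27.0) were lowest, with overlapping intervals for young NK and B cell-like cells.

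In lymphocyte-like cells the question was how far the counts exceeded free RNA. The free RNA level was taken as a member's UMIs per neutrophil-like cell times the share of neutrophil-like S100a8 and S100a9 UMIs found in that class. In B cell-like cells, Ifitm3 was at 5.77 UMIs per cell in the old library, 1.78 times its free RNA level, and at 1.56 in the young library, 1.58 times that level. Ifitm6 was at 6.07 UMIs per cell in old B cell-like cells, 1.07 times the free RNA level, and at 0.341 in young ones, 1.55 times. Ifitm1 was at 1.41 times in old and 1.21 times in young, and Ifitm2 at 1.57 and 1.05 times.

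T cell-like cells gave 1.96 times for Ifitm3 in the old and 2.07 times in the young library, the highest ratio of the members in both. The 26 old NK cell-like cells gave 2.16 to 4.63 times, from 30 to 67 UMIs per member, and the 204 young ones 0.937 to 1.77 times. These ratios depended on the measure of free RNA. With Ltf, Camp and Ngp as the measure, young T cell-like cells stood at 5.54 to 7.40 times and young NK cell-like cells at 0.198 to 0.374 times, so no expression in lymphocytes is read from them. At most 36.9% of old and 17.4% of young lymphocyte-like cells held a UMI of any 1 member at 1000 UMIs; the unthinned shares in B cell-like cells ran from 75.8% to 88.5% in the old and from 10.3% to 51.3% in the young library.

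Ifitm3 followed the interferon-stimulated genes Ifit3 and Isg15, and no other member was called higher. Granule-low cells with at least 1000 UMIs were thinned to 1000 UMIs and split by the sum of Ifit3 (an antiviral protein of the Ifit family) and Isg15 (a ubiquitin-like modifier) UMIs. Old cells with 0 such UMIs numbered 3015, those with 1 numbered 199, those with 2 to 3 numbered 57 and those with 4 or more numbered 24. The young cells numbered 8151, 845, 256 and 100.

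Ifitm3 stood at 1735 CPM (1715 to 1756), 2237 (2144 to 2332), 2786 (2591 to 2992) and 4965 (4532 to 5429) over these classes in the old library. Young cells stood at 918 CPM (908 to 928), 1441 (1403 to 1479), 2082 (1997 to 2170.2) and 3847 (3658 to 4043). No neighbouring classes overlapped in their intervals in either library. Compared as at least 2 against 0 UMIs, Ifitm3 was higher at a log2 ratio of 0.95 in the old library (81 against 3015 cells) and 1.48 in the young one (356 against 8151 cells). Over cells, Pearson's r of Ifitm3 with Ifit3 plus Isg15 was 0.193 in 3295 old and 0.307 in 9352 young granule-low cells, counts that share a library and a fixed depth.

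The other members differed less or were lower. Ifitm1 stood at 7475 CPM (7433 to 7517), 6595.5 (6436 to 6758), 4869 (4610 to 5139) and 4595 (4178 to 5041) in the old library and at 2003, 1931, 1994 and 1947 CPM in the young one. Its log2 ratio was -0.64 in the old and -0.02 in the young library. Ifitm2 gave -0.27 and 0.08, and Ifitm6 -0.47 and 0.54. Ifitm6 stood over the 4 classes at 1007, 897, 630.2 (539 to 732) and 999 CPM in old cells, lowest at 2 to 3 UMIs. In young cells it stood at 154 (150.2 to 158), 157, 185 and 334 CPM (280 to 395). Old cells with 0 and with 4 or more UMIs also differed in depth (median 4872 and 3630 UMIs) and in granule share (0.304% and 0.230%). What part this has in the old Ifitm1 levels was not tested.

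By count, 1 of 4 members was higher and 1 lower in the old library, against 16.5% of genes higher and 12.8% lower (15% and 14.2% relative to the median gene) in a comparison that rests on 81 cells. In the young library 1 was higher and none lower, against 5.53% and 6.46% of genes (6.36% and 5.22% relative to the median gene). Ifitm3 held rank 558 of 6953 genes in the old and 105 of 7373 in the young library. Taking at least 1 UMI as positive brought the old Ifitm3 ratio to 0.55 and the old Ifitm1 ratio to -0.29, neither called, and thinning to 2000 UMIs brought Ifitm1 to -0.47. Young Ifitm6 passed 1.5-fold when centred on the median gene (0.60) and in the 20% of cells lowest in granule share (1.37, 89 positive cells).

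Among the promoter windows shown above, Ifitm3 held 2 matches in its window and Ifitm2 held 1, but Ifitm2 was not called in either library. The windows of Isg15 and Ifit3 held 3 and 2 matches. Nothing about binding was measured.

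**Figure D4:**
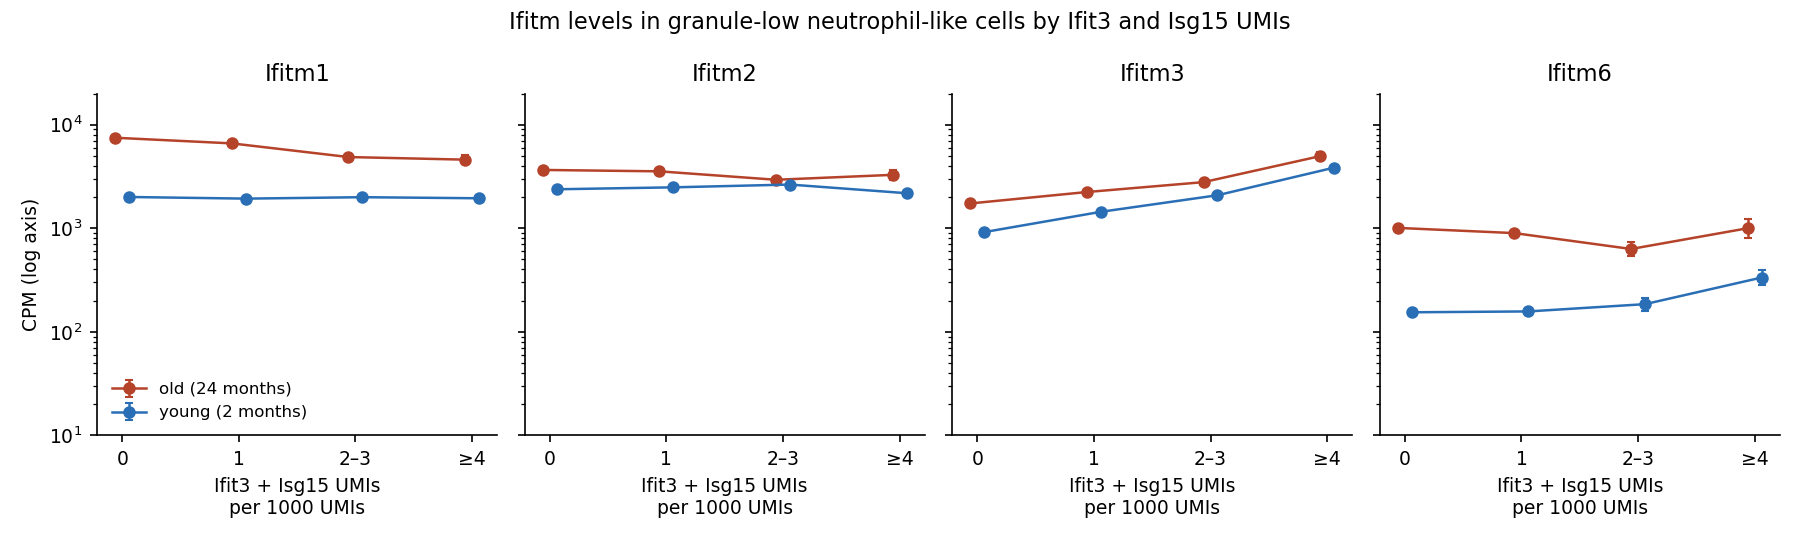
Level of each member (CPM, log axis) in granule-low neutrophil-like cells of the old and young library by the number of Ifit3 and Isg15 UMIs in a cell thinned to 1000 UMIs, with exact Poisson intervals that cover counting error only. Ifitm3 goes up over the classes to 4965 CPM in old and 3847 CPM in young cells, while old Ifitm1 is at 7475 CPM in the lowest and 4595 CPM in the highest class.

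Other targets of type I interferon moved more than Ifitm3 in this split. Of 34 listed targets 32 were in the files, and all 29 at 5 CPM or more, Ifit3 and Isg15 left out, were higher in positive cells of each library. Their log2 ratios ranged from 0.69 to 6.75 in the old and from 0.70 to 5.46 in the young library. Ifitm3 exceeded 1 of these 29 targets in the old and 4 in the young library. Examples with the largest ratios were Ifit2 (6.75 in old, 5.46 in young), Ifit3b (5.90 and 4.94) and Ifit1bl1 (5.13 and 5.24), all of the Ifit family of RNA-binding antiviral proteins, and Ifit1 in the old library (5.53).

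Between the ages the targets differed from the members in direction. None of 30 targets at 5 CPM or more was higher in old neutrophil-like cells and 27 were lower, against 51.3% of all genes lower, with a median log2 ratio of -1.41 against -0.60 over all genes tested. Relative to the median gene 17 were lower and 1 higher. In granule-low cells 20 of 30 were lower and none higher, against 26.5% of genes lower (median -0.71, all genes -0.35), and relative to the median gene 9 were lower and 1 higher. Slfn5 stood at 53.0 CPM in old and 167 CPM in young granule-low cells (-1.64), and Cmpk2, a mitochondrial nucleotide kinase, at 18.4 and 55.6 CPM (-1.55). Ifit3 stood at 22.0 CPM in old and 60.2 CPM in young ones (-1.41), and Ifit3b had a ratio of -1.53. The highest of the 30 targets had a ratio of 0.47 in granule-low cells, below the 0.60 of Ifitm2. Interferon receptors and their kinases gave 2 of 9 lower and none higher in granule-low cells, Jak2 (-0.71) and Jak1 (-0.62), the kinases of these receptors, a share near the 26.5% of all genes that were lower. Relative to the median gene 1 was higher and none lower. Ifnar1, a chain of the type I interferon receptor, was at 48.5 CPM in old and 72.6 CPM in young granule-low cells (-0.57), and Ifngr1, a chain of the interferon gamma receptor, at 244 and 179.7 CPM (0.44).

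Genes whose products act on Ifitm proteins were measured too. Zdhhc20, a palmitoyltransferase that adds lipid to Ifitm3, was lower in old granule-low cells at 112 CPM against 182 CPM in young ones (-0.70). Setd7, a methyltransferase, was at 89.3 CPM in old and 122 CPM in young ones (-0.45). Vcp, an ATPase that extracts proteins from membranes, was at 45.8 and 63.0 CPM (-0.45), and Vapa, a membrane protein that binds Ifitm3, at 152 and 176 CPM (-0.20). So 1 of 5 measured partners was lower in old granule-low cells and none higher, a share near the 26.5% of all genes, and none was called relative to the median gene. Along maturity, Zmpste24, a protease that works with Ifitm3, was higher in granule-high cells at 65.2 CPM against 4.60 CPM in granule-low cells of the old library (3.56) and at 101.1 CPM against 6.70 CPM in the young one (3.73). Nedd4, a ubiquitin ligase of Ifitm3, was higher at 25.5 CPM against 1.59 CPM in the old library (3.36) and at 67.4 CPM against 3.02 CPM in the young one (4.09). Zdhhc20 (-1.07 in old, -0.90 in young) and Setd7 (-1.36 and -0.77) were lower. Vapa was at -0.30 in both libraries, and Vcp at 0.46 in the old and 0.50 in the young one. The count was 2 of 6 higher and 2 of 6 lower in each library, against 11.5% of genes higher and 43.9% lower in the old and 15.4% and 46.8% in the young one. Relative to the median gene it was 3 higher and 1 lower in the old library, and 3 higher and none lower in the young one. Nedd4 in both libraries and Zmpste24 in the old one were under 5 CPM in granule-low cells. They met the floor of a mean of 5 CPM only through granule-high cells, which favoured a call as higher in advance. Nothing is therefore read from the count of partners higher. Over all neutrophil-like cells, Zmpste24 was at 26.0 CPM in old and 8.25 CPM in young cells (1.55) and Nedd4 at 10.1 and 4.31 CPM (1.06). Zdhhc20 was lower at 77.6 CPM in old and 179 CPM in young cells (-1.20), as was Setd7 at 60.8 and 121 CPM (-0.98), while Vapa was at -0.34 and Vcp at -0.25. That is 2 of 6 higher and 2 lower, against 7.56% and 51.3% of genes, and relative to the median gene 2 higher and none lower. Here Nedd4, under 5 CPM in young cells, met the floor only through the old cells. Cells with Ifit3 and Isg15 UMIs gave none of the partners higher or lower, of 4 at 5 CPM or more in the old and 5 in the young library.

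The genes most alike to each member were found by Pearson's r of log2(CPM + 1) over 23 points, the classes and granule ranges of each library with at least 50 cells, among 5727 genes. The points share 2 libraries and overlapping depths, and the cells of the granule ranges enter again in the whole neutrophil-like class, so r is a description. The young ranges of 2 to 5% (29 cells) and of 5% or more (39 cells) were too small to enter. Ifitm1 ran closest with Wfdc17 (0.956), the chemokine gene Cxcl2 (0.954), the fatty acid binding protein gene Fabp5 (0.953), Acod1, the enzyme that makes itaconate (0.947), and the chemokine receptor gene Cxcr1 (0.942). Ifitm2 ran closest with App (0.980), the lectin receptor gene Clec4e (0.961), Pgd (0.959), Hp, which encodes haptoglobin (0.956), and Alox5ap, needed for leukotriene synthesis (0.955). Ifitm3 ran closest with Grn, which encodes progranulin (0.948), Adam15 (0.944), the lysozyme gene Lyz2 (0.925), Tnfrsf21 (0.914) and Dgkg (0.906). Ifitm6 ran closest with Cd177, a surface protein of neutrophils (0.959), Acvrl1 (0.942), Anxa3 (0.939), Flot2 (0.922) and Gyg (0.910). Among the members themselves, Ifitm1 and Ifitm2 had the highest r (0.868) and Ifitm1 and Ifitm3 the lowest (0.476).

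Of the remaining family genes listed, Ifitm7 was near absent and Ifitm5 and Ifitm10 were low. Over all kept cells of the old library Ifitm5, known from bone, had 330 UMIs (2.61 CPM), Ifitm7 had 15 (0.119) and Ifitm10 had 519 (4.10). Over all kept cells of the young library they had 176 (2.65), 11 (0.166) and 620 UMIs (9.34 CPM). In young granule-high against granule-low cells 1 of these 3 genes reached 5 CPM and was higher (1.29), where 15.4% of genes were higher. In old over young neutrophil-like cells (-0.44) and by Ifit3 and Isg15 in the young library (-0.22), 1 reached it and was within 1.5-fold. Small cell sets outside the named classes added 1 high level: 17 old cells led by the basophil and mast cell genes Prss34 and Mcpt8 stood at 5366 CPM (4963 to 5793) of Ifitm1 and 712 CPM (570.0 to 878) of Ifitm3. So few cells were not compared with the classes.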

How the data were processed

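Gene by cell count matrices of UMIs were deposited by the authors, 1 per library, made with Cell Ranger 7.2.0 per the file headers and with build mm10 per the submitters' processing notes. The settings of that run, the read alignment and any cell filter are not given in the sources used here. The deposited matrices hold raw counts, with no normalization.

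Barcodes with under 200 genes or over 20% mitochondrial UMIs were removed. Cells of both libraries were clustered together with scanpy 1.11.5 (2000 variable genes, which held no Ifitm gene, 30 principal components, 15 neighbours, Leiden resolution 0.6), in Python 3.11.15. Clusters were named from listed markers. The limits for naming were set after the data had been seen: at least 20 cells, markers at 20 CPM and at 25% of their highest cluster, and leading genes at a median of 100 CPM. No doublet caller was run. An alternative drops cells with 0.5% or more of UMIs from markers of other types. UMIs were summed per class and library. Ratios are log2 of (CPM + 1) over (CPM + 1), for genes at a mean of 5 CPM or more, and the median gene is that of genes at 50 CPM or more. With 1 library per age, no test across libraries was possible. Comparisons within a library set cells of 1 source against each other and have no replicate check either.

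The members and lists were chosen with earlier results of these data known. The 4 members are named whatever their values, partners at 10 CPM or more, and of the other lists up to 4 genes by size of ratio. Neutrophil, antigen presentation and cluster genes given beside results were named after their values had been seen. In simulated counts for old over young in granule-low cells, 50 of 50 genes were recovered for each of the log2 changes of -2, -1, 1 and 2, and 0 of 7022 unchanged genes were called. These counts carried counting error only around a shared profile, with no spread between cells, animals or libraries. At such depth this outcome checks the calculation and gives no rate of false calls between the ages. Promoter sequences are from RefSeq (GRCm38.p6) and all 4 members matched by symbol.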

Additional observations from a re-analysis of the deposited data

How the results depend on the processing

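The counts of members higher or lower from 1.5-fold were recomputed under other scalings, filters, ranges and cell sets. In the comparisons between sets of cells, no member changed its direction past that limit. Against free RNA, Ifitm3 and Ifitm6 did so with the measure in young NK cell-like cells. They stood at 1.75 and 1.77 times by S100a8 and S100a9, and at 0.369 and 0.374 times by Ltf, Camp and Ngp. In old granule-high over granule-low cells, the count was 2 higher and 1 lower without S100a8, S100a9, mitochondrial and ribosomal protein genes in the total, with the share of Cd177, Ly6g, Serpinb1a, Prok2 and Ggt1 as the scale, and when centred on the median gene. It was 2 higher with the B cell-like level subtracted. In the young library it was 0 lower with the highest and lowest 20% of cells on either scale, and 2 higher when centred. Old non-classical monocyte-like cells gave 1 higher against the 20% of cells lowest in granule share. For Ifit3 and Isg15 in the old library, 0 members were lower in the 20% of cells lowest in granule share, with at least 1 UMI as positive and after thinning to 2000 UMIs, and 0 were higher with at least 1 UMI. In the young library 2 were higher in the 20% lowest in granule share and when centred. Members at 1.5 times the free RNA level or more in B cell-like cells numbered 2 in each library. Without the cells richest in S100a8 and S100a9 they numbered 4 in each, and with Ltf, Camp and Ngp as the measure 4 in the young library. Old over young in granule-low cells gave 2 higher with the B cell-like level subtracted and within clusters 0, 4 and 11. The cause of these shifts was not tested. The subtraction, the clusters and, along maturity, in monocyte-like cells and by Ifit3 and Isg15, the centring were chosen after seeing the data. The cell filter, the floor and the removal of cells with markers of other types moved none of these counts by over 1.5 times. No paired analysis was possible because each age has 1 library, and for the same reason no replicate could be left out. The number of cells limits the young granule-high set (68 cells) and the old NK cell-like set (26 cells).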

Other observations

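Platelet-like cells held Ifitm3 at 1509 CPM (1431 to 1590) in the old and 630.2 CPM (566 to 699.7) in the young library. Against free RNA the order of the ages depended on the measure, with 4.60 times in the old and 2.51 times in the young library by S100a8 and S100a9, and 9.68 and 18.7 times by Ltf, Camp and Ngp. In erythroid cell-like cells Ifitm3 stood at 617 CPM in the old and 229.6 CPM in the young library. A set of 14 old cells led by Top2a and Fcnb, genes of dividing cells and of early neutrophil stages, held Ifitm6 at 1983 CPM (1861 to 2111) and Ifitm1 at 277 CPM (232 to 327). No young cell fell in this set. At the alternative Leiden resolution of 1.0, a neutrophil progenitor-like cluster held 77 old and 0 young cells. Its levels differed from those of the 14 cells, with Ifitm6 at 863 CPM, Ifitm1 at 705 CPM and Ifitm3 at 2071.5 CPM.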
